A study of Homo sapiens with 17 samples.

Results

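The MYC, MAX and MXD network is a family of basic helix-loop-helix leucine zipper transcription factors, and 10 of its genes were examined here: MYC, MYCN, MYCL, MAX, MXD1, MXD3, MXD4, MXI1, MNT and MGA. The regions described were chosen by their presence in the deposited lists: every peak region that overlapped the RefSeq span of one of these genes, extended by 25 kb on each side, was taken. This gave 235 of the 266843 regions in 8 lists, near 10 of 20037 protein-coding genes.

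Nthy-ORI, an established line of human thyroid epithelial cells, was profiled by CUT&RUN, which uses an antibody-guided nuclease to cut out the DNA around a bound protein. Antibodies recognised TRβ (the thyroid hormone receptor beta, a ligand-dependent transcription factor), BRG1 (the motor subunit shared by 2 chromatin remodelers, BAF and PBAF), ARID1A (a subunit of BAF) or PBRM1 (a subunit of PBAF). Hormone-starved cells in charcoal-stripped serum received either 10 nM T3, the active thyroid hormone, or its NaOH vehicle; every library is labelled as 6 hours, although the protocol text also names a longer time, and 500000 cells went into each reaction. Each of the 8 groups (4 antibodies, each with vehicle or T3) had 2 libraries and 1 deposited list of regions found in both, so no comparison of conditions over replicates was possible. Nothing says that the libraries came from separate cultures. No expression was measured in these lists, so the thyroid identity of the cells was not checked here, and the read depth is unknown.

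MYC binds DNA as a dimer with MAX, most often at the E-box CACGTG, and promotes growth and ribosome production. MXD1, MXD3, MXD4, MXI1 and MNT compete with MYC for MAX and for the same sites, where they recruit SIN3 and histone deacetylases. MGA also pairs with MAX and is part of a Polycomb complex, PRC1.6, and MYCN and MYCL are paralogs of MYC with narrower tissue expression. High MYC expression has been described in poorly differentiated and anaplastic thyroid cancers. TRβ recognises pairs of the half-site AGGTCA, usually together with a retinoid X receptor.

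The promoter sequences that the receptor results turn on are given first. They span 250 bases before to 50 after an annotated start (RefSeq, GRCh38.p14, the build of the lists), 5′ to 3′ on the strand of the gene, with CACGTG and AGGTCA (searched on both strands, TGACCT being the reverse complement) in capitals. The first 5 sequences are the windows overlapped by a TRβ region, and MXD4 is shown as the other window that held an E-box. They are MNT (chr17:2401011-2401310, minus strand), MYCL (chr1:39901868-39902167, minus strand), MXD3 (chr5:177312703-177313002, minus strand), the MXI1 windows of the second (chr10:110209981-110210280, plus strand) and the third annotated start (chr10:110225746-110226045, plus strand), and MXD4 (chr4:2262060-2262359, minus strand).
MNT: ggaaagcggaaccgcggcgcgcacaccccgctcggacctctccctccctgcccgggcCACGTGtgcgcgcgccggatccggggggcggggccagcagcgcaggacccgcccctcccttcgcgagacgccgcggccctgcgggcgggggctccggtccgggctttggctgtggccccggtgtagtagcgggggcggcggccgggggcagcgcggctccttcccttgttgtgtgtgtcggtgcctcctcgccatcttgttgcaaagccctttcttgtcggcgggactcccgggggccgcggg
MYCL: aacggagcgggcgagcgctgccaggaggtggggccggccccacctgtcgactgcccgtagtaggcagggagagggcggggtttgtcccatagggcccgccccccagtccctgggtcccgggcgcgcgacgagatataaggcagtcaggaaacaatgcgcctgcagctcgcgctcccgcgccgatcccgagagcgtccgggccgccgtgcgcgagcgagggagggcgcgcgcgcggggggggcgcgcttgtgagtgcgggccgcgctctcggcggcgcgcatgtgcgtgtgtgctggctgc
MXD3: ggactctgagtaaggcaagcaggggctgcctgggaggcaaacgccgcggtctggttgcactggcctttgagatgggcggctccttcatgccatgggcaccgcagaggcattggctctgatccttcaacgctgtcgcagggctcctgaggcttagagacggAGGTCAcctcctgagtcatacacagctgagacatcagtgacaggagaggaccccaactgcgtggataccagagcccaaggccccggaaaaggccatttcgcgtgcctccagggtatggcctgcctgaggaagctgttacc
MXI1, start 2: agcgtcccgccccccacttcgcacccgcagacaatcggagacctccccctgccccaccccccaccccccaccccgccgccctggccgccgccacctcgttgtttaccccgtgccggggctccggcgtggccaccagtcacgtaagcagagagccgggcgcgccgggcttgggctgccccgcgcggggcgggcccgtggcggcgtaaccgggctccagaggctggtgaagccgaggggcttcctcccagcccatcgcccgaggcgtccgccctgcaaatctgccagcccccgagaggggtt
MXI1, start 3: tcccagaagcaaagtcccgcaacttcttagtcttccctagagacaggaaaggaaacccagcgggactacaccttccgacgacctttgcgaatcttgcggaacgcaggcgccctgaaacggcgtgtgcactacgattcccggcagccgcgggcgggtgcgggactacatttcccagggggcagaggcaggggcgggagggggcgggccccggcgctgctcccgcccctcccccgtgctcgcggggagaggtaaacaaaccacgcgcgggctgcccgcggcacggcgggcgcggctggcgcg
MXD4: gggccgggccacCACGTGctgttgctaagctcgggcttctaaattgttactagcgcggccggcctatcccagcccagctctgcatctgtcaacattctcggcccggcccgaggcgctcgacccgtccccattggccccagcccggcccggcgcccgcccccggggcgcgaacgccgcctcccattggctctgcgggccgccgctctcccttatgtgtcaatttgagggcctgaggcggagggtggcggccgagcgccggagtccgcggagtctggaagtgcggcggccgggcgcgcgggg
The table held 14 windows of 9 of the genes; the MYC window was not used here. CACGTG occurred in 2 of the 14, at -193 in MNT and -238 in MXD4, counted from the start to the first base of the motif. It occurred in 8.34% of the 22199 windows of protein-coding genes. AGGTCA or its complement occurred in 1 of the 14, at -90 in MXD3, and in 11.9% of all windows. MYCL and both MXI1 windows held neither motif. These are matches of letters in a short window and do not locate a binding site.

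TRβ regions lay near 2 of the 10 genes in vehicle (MNT and MYCL) and near 4 in T3 (MNT, MYCL, MXD3 and MXI1), as the heat map of regions by gene shows. Among all protein-coding genes, 11.1% had a TRβ region within 25 kb in vehicle and 39.3% in T3, so 4 of 10 was close to the share over all genes. The list as a whole held 1412 TRβ regions in vehicle and 7208 in T3, 5.1 times as many. The network genes had 2 regions in vehicle and 8 in T3. Of the 8, 5 were T3-only, meaning that no base overlapped a vehicle region; this is 62.5% (exact Clopper-Pearson 95% interval 24.5 to 91.5%, counting error across regions only), against 93.0% of the whole list. The 5 lay at MXI1 and MXD3, so 2 of the 10 genes had a T3-only region, against 37.7% of all genes. Neither vehicle region was vehicle-only, where 67.1% of the whole vehicle list was, and 6.81% of all genes had one of that kind.

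**Figure D1:**
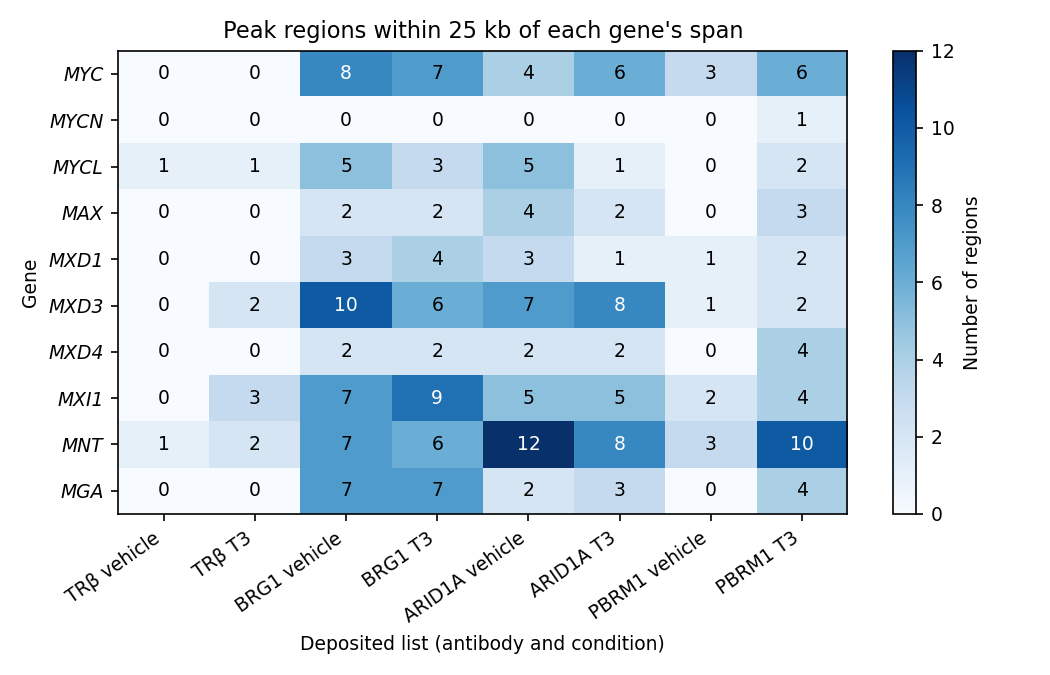
Number of peak regions within 25 kb of the span of each gene (rows) in each deposited list (columns), with darker blue for more regions. MNT, MYCL, MXD3 and MXI1 are the 4 genes with TRβ regions, MYCN has a single region in all 8 lists, and the PBRM1 T3 list alone has a region at all 10 genes.

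MNT, a broadly expressed MAX partner that opposes MYC, had the highest TRβ signal values among the 10 genes in both conditions. The authors' signal value of a region adds up its values in both libraries, has no stated unit, and is used here only to describe and rank regions within a list. The vehicle region at MNT (chr17:2395691-2402249) had values of 31.2 and 44.0 in its 2 libraries, 75.2 in all, and had rank 2 of 1412. It was 6559 bp wide, whereas the median width in its list was 885 bp, and ran from -1.19 to 5.37 kb relative to the MNT start, in the direction of transcription. In T3, a region of 6674 bp (chr17:2395778-2402451) covered nearly the same stretch, with 6472 bp in common. Its libraries gave 20.5 and 24.1, together 44.6, rank 7 of 7208. A second T3 region (chr17:2392406-2395704), with library values of 10.5 and 12.3, lay farther inside the gene at 5.36 to 8.65 kb. It counts as shared through an overlap of only 14 bp with the vehicle region. TRβ regions of both conditions therefore covered the MNT promoter window and the first part of the gene, each with a value from both libraries. The stretch covered in T3 reached farther into the gene.

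**Figure D2:**
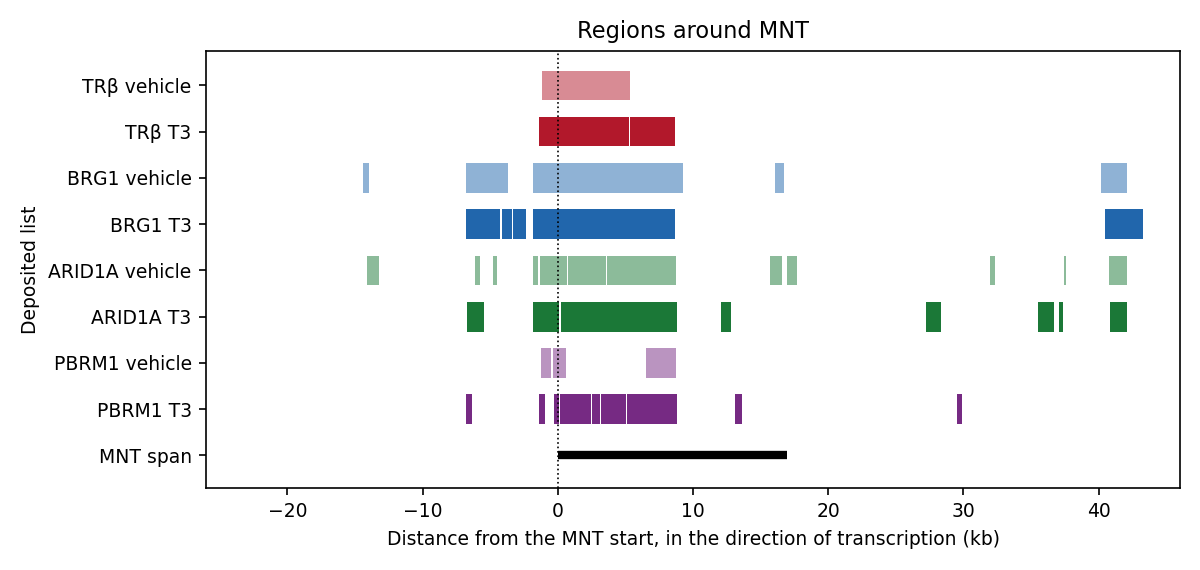
Regions of the 8 lists around MNT, as bars along the distance in kb from the annotated start (dotted line), with transcription to the right and the gene span in black. TRβ, BRG1, ARID1A and PBRM1 regions meet around the start in both conditions, and farther along the first 9 kb in T3 only. Gaps of a few bases between neighbouring regions are not visible at this scale.

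MXI1, an MXD family repressor, had no TRβ region in vehicle and 3 in T3. The region chr10:110209818-110211013 covered the second annotated start (-0.413 to 0.782 kb), with library values of 9.29 and 5.46 and rank 924 of 7208. The region chr10:110225865-110227313 covered the third start (-0.131 to 1.32 kb), with library values of 8.50 and 8.16 and rank 583. Both lie over promoter windows printed above that hold no AGGTCA. The third region, chr10:110304702-110305022, lay over an end of the neighbouring SMNDC1, a splicing factor gene, 17.3 kb beyond the MXI1 span. Its libraries gave 5.85 and 4.45, the lowest pair of the 3. In vehicle, the nearest TRβ region was 4000.0 kb from the MXI1 span.

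MXD3, another MXD repressor, also had TRβ regions in T3 only. The region at its start (chr5:177311414-177312964, -0.212 to 1.34 kb) had library values of 7.34 and 8.72 and ranked 663 of 7208. It overlapped the window that holds the AGGTCA match. The other region (chr5:177302345-177303107) lay inside RAB24, a gene of a small GTPase, 2.39 kb from the MXD3 span. Its libraries differed more, with 7.08 and 2.97. Its deposited global irreproducible discovery rate (IDR) was 0.0365, where the lists reach 0.05. This rate is the expected share of irreproducible regions among those ranked at least as high. The nearest vehicle region was 714.0 kb away.

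MYCL, the MYC paralog first found in small cell lung cancer, had 1 TRβ region in each condition, both over its start. In vehicle (chr1:39900742-39902306, -0.389 to 1.18 kb) the libraries gave 7.88 and 7.03, rank 348 of 1412, with an IDR of 0.0361. In T3 (chr1:39901534-39902327, -0.410 to 0.383 kb) they gave 5.19 and 6.44, rank 2168 of 7208, with an IDR of 0.00207. The regions shared 773 bp. The T3 region was the narrower, 794 bp against 1565 bp. Ranks in lists of such different length show no change, and the values of separate lists were not shown to be on 1 scale.

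The other 6 genes had no TRβ region within 25 kb in either condition. From the MYC span the nearest lay 207.0 kb away in vehicle and 250 kb away in T3, and from MYCN 3400.0 kb in both, near OSR1. MXD1 had a TRβ region at GMCL1 at 84.4 kb in vehicle and 84.9 kb in T3. For MGA the nearest T3 region was 57.6 kb away, at JMJD7-PLA2G4B, for MAX 136.0 kb, near FUT8, and for MXD4 182.0 kb, near CFAP99. In vehicle the corresponding distances were 589.0, 6710.0 and 534.0 kb. The limit of 25 kb separated the SMNDC1 region, 17.3 kb from MXI1, from a T3 region nearest LMAN2 at 40.0 kb from MXD3 (library values 6.53 and 3.82). In vehicle both regions taken overlapped a gene span, and the next was the GMCL1 region at 84.4 kb from MXD1 (7.13 and 6.76).

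**Figure D3:**
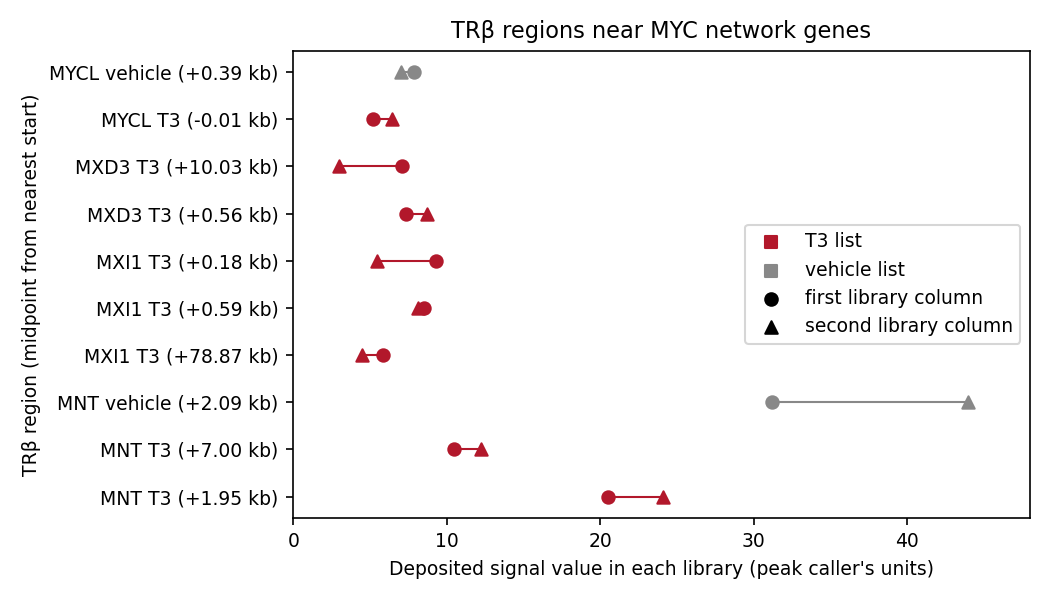
Deposited signal value of each library (horizontal axis, in the peak caller's units) for the 10 TRβ regions near network genes, labelled with condition and distance of the midpoint from the nearest annotated start; the line joins the 2 libraries of a region. The MNT regions at the start lie farthest to the right, 31.2 and 44.0 in vehicle and 20.5 and 24.1 in T3, and all other values are 12.3 or lower.

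BRG1 and ARID1A were found at most of the genes in both conditions, as at most genes in general, and PBRM1 at more genes in T3. BRG1 and ARID1A regions lay near 9 of the 10 genes in vehicle and in T3, MYCN being the exception. Over all protein-coding genes the shares were 82.8% in vehicle and 79.8% in T3 for BRG1, and 79.5% and 76.0% for ARID1A. PBRM1 regions lay near 5 genes in vehicle (MYC, MXD1, MXD3, MXI1 and MNT), against 44.0% of all genes, and near all 10 in T3, against 78.1%. The number of regions went from 51 to 46 for BRG1 and from 44 to 36 for ARID1A, while the covered length was 66.9 and 66.6 kb for BRG1 and 40.1 and 44.7 kb for ARID1A. The whole BRG1 lists went from 64299 to 55938 regions, a ratio of 0.87, beside 0.902 near the network genes. For ARID1A they went from 49021 to 41710, a ratio of 0.851, beside 0.818. In covered length the whole lists had ratios of 0.971 for BRG1 and 0.987 for ARID1A. PBRM1 went from 10 regions to 38, a ratio of 3.8, and from 15.6 to 42.0 kb covered, a ratio of 2.69. With the lists cut to equal length, PBRM1 in T3 had 14 regions, near 7 of the 10 genes. The whole PBRM1 lists differed likewise, with 9115 and 38140 regions, a ratio of 4.18, and 2.85 for covered length. The median number of regions per network gene was 6 and 5 for BRG1, 4 and 2.5 for ARID1A and 0.5 and 3.5 for PBRM1 in vehicle and T3, where the median protein-coding gene had 3 and 3, 2 and 2, and 0 and 2. The median span of the 10 genes was 15.8 kb and that of all protein-coding genes 24.1 kb.

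Regions found in 1 condition only are given beside the share in the whole list they came from. The intervals treat regions as independent, although many share a gene, as 10 of the 38 PBRM1 T3 regions share MNT. They may therefore be too narrow. For PBRM1, 27 of 38 T3 regions were T3-only (71.1%, interval 54.1 to 84.6%; whole list 79.2%), and each of the 10 genes had at least 1, against 70.8% of all genes. Of 10 PBRM1 vehicle regions 1, at MYC, was vehicle-only (10.0%; whole list 24.9%), and 13.4% of all genes had such a region. For BRG1, 13 of 51 vehicle regions were vehicle-only (25.5%, 14.3 to 39.6%; whole list 29.3%) and 6 of 46 T3 regions were T3-only (13%, 4.94 to 26.3%; whole list 23.3%). Each kind occurred at 6 of the genes, against 57.7% and 44.3% of all genes. For ARID1A, 18 of 44 vehicle regions (40.9%; whole list 51.6%) and 17 of 36 T3 regions (47.2%, 30.4 to 64.5%; whole list 46.5%) were found in 1 condition, at 8 and 7 of the genes, against 63.2% and 54.8% of all genes.

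At the annotated starts, each remodeler overlapped most of the promoter windows in at least 1 condition. BRG1 regions overlapped 11 of the 14 promoter windows in vehicle and 13 in T3, where 58.9% and 54.3% of all windows were overlapped. ARID1A overlapped 9 and 12 (all windows 41.9% and 46.3%), PBRM1 3 and 12 (18.9% and 53.6%), and TRβ 2 and 5 (2.40% and 14.5%). The MNT window was overlapped in all 8 lists. The third MXI1 start was overlapped in 7, lacking TRβ in vehicle, and the MYCL start in 7, lacking PBRM1 in vehicle. The second MXI1 start and the MXD3 start were overlapped in 6, by all lists but TRβ and PBRM1 in vehicle. The MXD1 start was overlapped by all 6 remodeler lists and neither TRβ list. The MAX, MGA and MXD4 windows were overlapped in 3 to 5 lists, the first MXI1 start in 3, and the MYCN window in 0. Windows of 1 gene can be overlapped by the same region, as both MAX windows are in the BRG1 lists, and are not independent of each other.

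**Figure D4:**
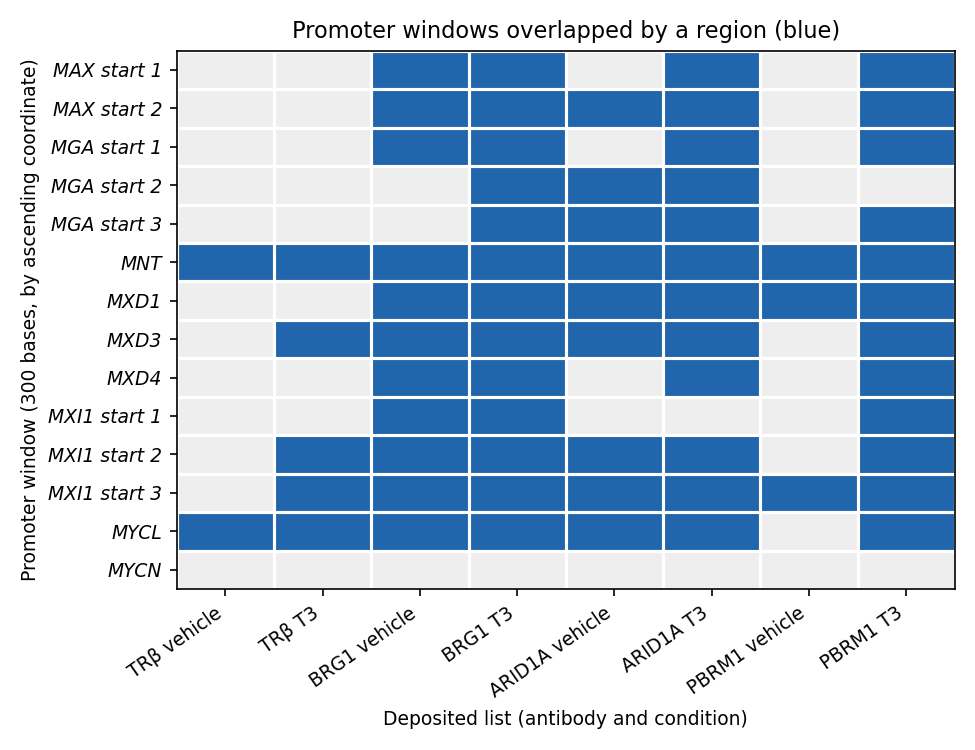
Promoter windows of 300 bases (rows, several for genes with more than 1 annotated start) and deposited lists (columns); blue marks a window overlapped by at least 1 base of a region. MNT is blue in all 8 columns and MYCN in none, and the PBRM1 columns differ most, with 3 windows in vehicle and 12 in T3.

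When overlapping regions of the 8 lists were joined, the windows held 73 sites, of which 39 came from 1 list and 1 site, at MNT, from all 8. Of the 9 sites found in 6 or more lists, 7 covered an annotated start. A joined site counts for both conditions where each list has a region anywhere in it, even if those regions miss each other or the start. At MXD4, for example, the ARID1A regions of vehicle and T3 do not overlap. The BRG1 vehicle region at the second and last MGA starts covers neither of them. All 11 sites over a start had BRG1 in both conditions in this sense, and 10 had ARID1A in both. PBRM1 was in both conditions at 5 of these 11 and in T3 only at 6. Of the 62 sites away from a start, BRG1 was in both conditions at 19, in vehicle only at 12 and in T3 only at 6. ARID1A was in both at 9, in vehicle only at 14 and in T3 only at 11. PBRM1 was in both at 1, in vehicle only at 1 and in T3 only at 14. Sites over a start were wider, with a median of 2420 bp against 737.5 bp, and the part of width in these counts was not tested. The same counts were not made over the sites of all genes, so whether any of them is particular to the network is not known. For MYC, which has no start in the table used, the lower end of the span stood in for one.

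All 8 TRβ T3 regions overlapped a BRG1 region of both conditions, an ARID1A T3 region and a PBRM1 T3 region; 7 overlapped an ARID1A vehicle region and 5 a PBRM1 vehicle region. In the whole TRβ T3 list, 70.5% overlapped a BRG1 region of vehicle and 68.2% one of T3. For ARID1A it was 65.0% and 66.3%, and for PBRM1 23% and 62.4%. The 8 regions were wider, with a median of 1322.5 bp against 723 bp in the whole list, and the part of width in these overlaps was not tested. Both MNT T3 regions overlapped regions of all 7 other lists, as did 142 of the 7208 regions (1.97%) of that list. The RAB24 region next to MXD3 lacked ARID1A and PBRM1 in vehicle, and the regions at the MYCL start and the second MXI1 start lacked PBRM1 in vehicle.

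Over the start and first part of MNT, BRG1 and ARID1A had long regions with high signal values, and PBRM1 had shorter ones. BRG1 in vehicle formed a region of 10552 bp (-1.29 to 9.26 kb; library values 20.3 and 39.1; rank 218 of 64299). In T3 the region over the start was 7750 bp (-1.83 to 5.92 kb; 14.9 and 27.3; rank 696 of 55938), and a separate region (7.49 and 13.6) followed at 5.97 to 8.70 kb. ARID1A in vehicle covered the stretch with regions at -1.35 to 0.671 kb, 0.727 to 3.53 kb and 3.63 to 8.78 kb; the last had the highest ARID1A vehicle value of the 10 genes, 21.8 and 29.0 in its libraries, rank 31 of 49021. In T3 a single ARID1A region of 8563 bp ran from 0.245 to 8.81 kb, with library values of 37.4 and 40.3, and had rank 4 of 41710. PBRM1 in vehicle lay at the start (-0.365 to 0.573 kb; 8.17 and 11.5), just before it, and at 6.54 to 8.74 kb (8.74 and 10.7), leaving a gap between. In T3 that gap held PBRM1 regions at 2.50 to 3.13 kb and 3.21 to 5.04 kb, both T3-only. The highest PBRM1 T3 value of the 10 genes was next to them, at 5.14 to 7.46 kb (18.2 and 12.8; rank 753 of 38140). Over the start itself, the PBRM1 T3 region was 354 bp wide (5.92 and 4.56, rank 26859 of 38140), where the median of its list was 806 bp. All 4 proteins thus met around the MNT start in both conditions, PBRM1 in T3 with low values. Farther inside the gene they met in T3 only. In vehicle the inner PBRM1 region, at 6.54 to 8.74 kb, lay beyond the TRβ region, which ended at 5.37 kb. Farther out, the MNT window held 10 sites seen in 1 list, several of them inside the neighbouring SGSM2.

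At MXI1, BRG1 in vehicle covered the first and second starts with 1 region of 4382 bp (27.2 and 23.5 in its libraries; rank 522). In T3, 3 BRG1 regions lay over the same stretch, with library values of 4.80 and 7.16, 7.61 and 11.6, and 14.4 and 7.24. ARID1A around the second start had 3 regions in vehicle, with summed values from 7.18 to 14.3, and 1 region of 1793 bp in T3, 31.8 in all (18.4 and 13.4; rank 467). PBRM1 was found at the first and second starts in T3 only, with 9.57 and 8.09 and with 9.91 and 8.55 in its libraries. At the third start it was found in both conditions, 9.0 and 12 in vehicle and 9.16 and 7.45 in T3. The SMNDC1 site with the third TRβ region held all 3 remodelers in both conditions. Its highest value, 40.7 for BRG1 in T3, came mostly from 1 library (32.6 and 8.07).

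At MXD3, BRG1, ARID1A and PBRM1 regions lay over or just inside the start in both conditions. The PBRM1 region in vehicle began 0.319 kb after the start, and that in T3 at -0.454 kb. The site in RAB24 differed more between the lists. It had no ARID1A or PBRM1 region over the TRβ interval in vehicle. In T3 it had 2 ARID1A regions (9.46 and 5.46; 5.33 and 8.38) and a PBRM1 region of 2171 bp (8.68 and 12.3), all T3-only. BRG1 in vehicle was split there into separate regions. They had library values of 4.25 and 3.32 (252 bp), 7.83 and 8.52 (1503 bp, rank 19953 of 64299) and 8.29 and 6.53 (746 bp). In T3 a single BRG1 region overlapped all of them, with 22.2 and 19.5 (2567 bp, rank 731 of 55938). Over the TRβ interval, ARID1A and PBRM1 were therefore listed in T3 alone, like TRβ itself, and BRG1 in both conditions. The window of MXD3 also holds parts of NSD1, PRELID1 and LMAN2, so a region in it may belong to another gene.

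At MYCL the start held BRG1 in both conditions (8.82 and 6.71 in vehicle; 3.21 and 8.05 in T3) and ARID1A in both (7.12 and 8.27 in vehicle; 11.3 and 8.44 in T3). A PBRM1 region of 2199 bp over the start was T3-only, with 8.77 and 14.6 in its libraries. A second T3-only PBRM1 region (13.7 and 4.66) lay about 18.3 kb downstream of the start, over an end of TRIT1, a tRNA-modifying enzyme gene, where BRG1 was found in both conditions. Of the 5 BRG1 and the 5 ARID1A vehicle regions near MYCL, 3 each were vehicle-only, all of them away from the start.

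MYC itself, with no TRβ region, was broadly covered by the remodelers in both conditions. The BRG1 vehicle region over the lower end of the span (chr8:127734797-127740837) was 6041 bp wide, with library values of 31.0 and 25.2 and rank 306 of 64299. In T3 the same stretch held 3 regions, of which the one over the lower end (chr8:127734032-127737527) had 18.5 and 19 and rank 1143 of 55938. ARID1A at the lower end had 16.8 and 2.96 in vehicle, an uneven pair, and 11.5 and 10.1 in T3. The PBRM1 region with the highest vehicle value of the 10 genes lay within MYC (chr8:127737256-127739596; 10.9 and 20.7; rank 373 of 9115), and MYC was the 1 gene other than MNT to hold such a highest value in any list. Over the same place, PBRM1 in T3 had 13 and 9.46, rank 3389 of 38140. The vehicle-only PBRM1 region (chr8:127741411-127742567; 6.84 and 7.46) lay near the upper end of the span. In T3, 4 PBRM1 regions were T3-only, among them 1 at 127740473 to 127741072 (9.33 and 3.83) between the places of the vehicle regions. A group of BRG1 and ARID1A regions lay farther up, about 20 kb from the lower end, in both conditions. Some of its BRG1 regions were vehicle-only and some of its ARID1A regions T3-only. PBRM1 was listed there in T3 only, with 4.84 and 3.92 and rank 36975 of 38140. No other protein-coding gene reaches into the MYC window.

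**Figure D5:**
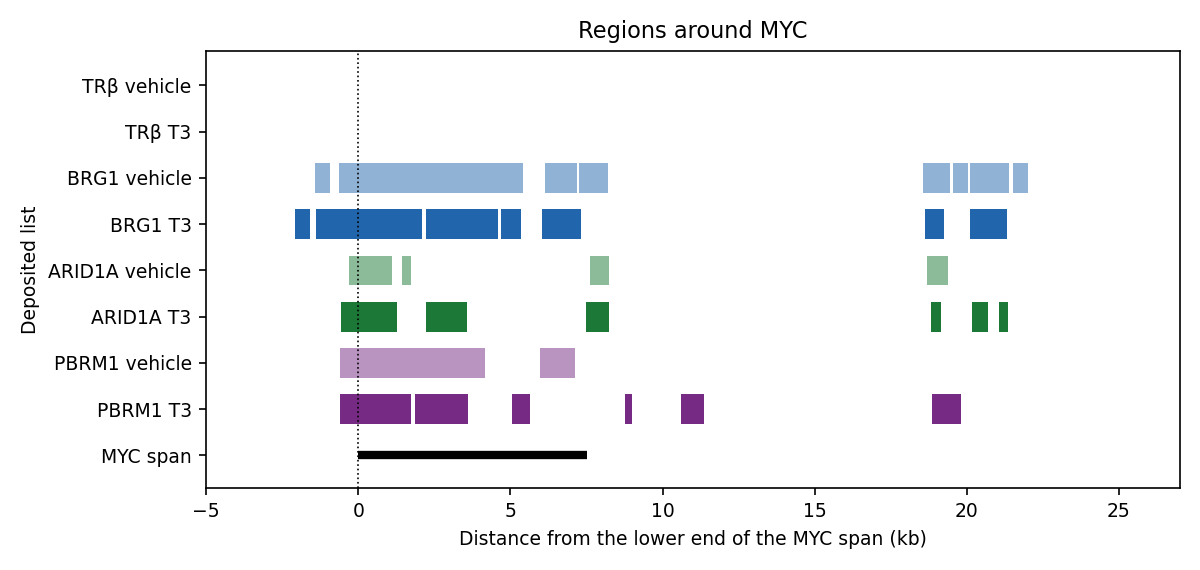
Regions of the 8 lists around MYC, as bars along the distance in kb from the lower end of its span, with the span in black; no region of any list lies in the parts of the window not drawn. Both TRβ rows are empty, BRG1 covers the gene and a stretch about 20 kb away in both conditions, and PBRM1 bars inside the gene overlap between vehicle and T3 over its lower part, with 1 further bar in each condition farther up.

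MYCN had 1 region in all, for PBRM1 in T3 (chr2:15942194-15942861; 7.32 and 4.07 in its libraries; rank 22305 of 38140), inside its span and away from the start. MAX, the common partner, had BRG1 over both promoter windows in both conditions (10.3 and 7.60 in vehicle; 8.60 and 6.69 in T3), and ARID1A with 5.04 and 12.4 in vehicle and 8.88 and 10.9 in T3. Its 3 PBRM1 regions were all T3-only, the one with the highest value lying over both starts with 9.60 and 10.2. MXD1 had all 3 remodelers at its start in both conditions, with PBRM1 values of 9.34 and 10.5 in vehicle and 8.18 and 12.2 in T3. At MXD4, ARID1A was listed on different sides of the start: in vehicle at 0.672 to 1.80 kb (4.90 and 7.09) and in T3 at -0.610 to -0.040 kb (4.33 and 3.92). All 4 PBRM1 regions at MXD4 were T3-only.

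MGA, the longest of the genes, had a wider BRG1 interval in T3 at its second and its last start. In vehicle the BRG1 region there began 0.483 kb after the last start (6.36 and 7.35 in its libraries). In T3 the listed region was 1974 bp wide, held the whole vehicle region, covered both starts and had 14.9 and 12.7. At the first start, BRG1 was found in both conditions (7.10 and 5.32 in vehicle; 13 and 5.58 in T3), while ARID1A (5.48 and 7.79) and PBRM1 (11.9 and 3.17) were listed in T3 only. Its highest BRG1 vehicle value (16.7 and 10.5) belonged to a region between MGA and the neighbouring MAPKBP1, over an end of the latter.

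Partners of the network were then examined in 6 lists with 52 genes. TRβ regions lay within 25 kb of 12 of the 52 in vehicle and 30 in T3, beside 11.1% and 39.3% of all protein-coding genes. BRG1 and ARID1A regions each lay near all 52 in vehicle and 51 in T3, and PBRM1 regions near 26 and 52. Over all genes, vehicle and T3 regions of BRG1 lay near 82.8% and 79.8%, those of ARID1A near 79.5% and 76.0%, and those of PBRM1 near 44.0% and 78.1%. Among corepressors that MXD and MNT proteins recruit, with MIZ1, TRβ was found at 4 of 8 genes in vehicle and 6 in T3. The highest TRβ T3 value of that list was at SIN3A, the scaffold of the SIN3 complex (chr15:75452713-75455970; 12.6 and 20.4; rank 27 of 7208), where vehicle also had a region (12.3 and 10.4; rank 82 of 1412). SIN3B (region at CPAMD8; 10.1 and 6.77 in T3) and the deacetylase gene HDAC1 (region nearest FAM229A; 5.80 and 5.83) also had TRβ in both conditions. ZBTB17, which encodes MIZ1, had different TRβ regions in vehicle (4.93 and 4.91) and T3 (5.13 and 4.07).

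Among MYC coactivators, 3 of 10 genes had TRβ in vehicle and 6 in T3, beside 11.1% and 39.3% of all protein-coding genes. HCFC1, the gene of a chromatin adaptor, had the highest T3 value of that list (8.44 and 16.2; T3-only), followed by RUVBL2, an AAA+ ATPase gene (7.91 and 8.46; shared), and KAT5, an acetyltransferase gene (9.19 and 5.35; T3-only). EP400, a remodeler ATPase gene, had 7.33 and 8.11 in vehicle and, elsewhere, 4.53 and 8.34 in T3. SMARCB1, which encodes a core BAF subunit, had a shared region (5.47 and 5.48 in vehicle; 7.09 and 4.60 in T3). In the MLX branch, 1 of 3 genes had TRβ in vehicle and 2 in T3. The region near MLXIPL, the ChREBP gene, lay at TBL2 and was shared (8.0 and 9.07 in vehicle; 13 and 11.1 in T3), and that near MLX lay at PSMC3IP (6.10 and 6.61; T3-only).

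In PRC1.6, the Polycomb complex that holds MGA, 1 of 9 genes had TRβ in vehicle and 4 in T3. Over all protein-coding genes, the shares beside these and the counts below were 11.1% and 39.3%. The ubiquitin ligase gene RING1 had 7.31 and 10.6 (at HSD17B8), CBX3, which encodes HP1 gamma, 9.39 and 4.43 (at HNRNPA2B1), and RNF2 5.99 and 4.11. Of these, the RNF2 region was shared, but only through a few bases at its edge. It was chr1:185045741-185046427 in T3 and chr1:185045058-185045748 in vehicle. Among genes for MYC turnover, the counts were 1 and 4 of 8. USP36, a deubiquitinase gene, had 6.60 and 8.32 in T3 (at CYTH1), and the kinase gene AURKA 8.67 and 6.01 in T3 and, at another place, 7.16 and 6.98 in vehicle. Of 14 textbook targets of MYC, 2 had TRβ in vehicle and 8 in T3. The regions with the highest T3 values lay near CAD, a pyrimidine synthesis gene (9.94 and 8.74, at SLC5A6 and ATRAID), at EIF4E, which encodes the cap-binding protein (6.69 and 9.52), and near CDK4 (9.38 and 6.07, at AGAP2). CDK4 and NCL, the nucleolin gene, were the 2 with a vehicle region (10.5 and 10.3; 5.99 and 6.64). Many of these regions lie at or nearest another gene than the one listed, so their assignment rests on distance alone.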

How the data were processed

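The lists hold CUT&RUN peaks of 8 groups, each with 2 libraries; the IgG library was not analysed here. Per the submitters' processing notes, the build was hg38 and the tools were MACS2, Bowtie2, Trim Galore and CASAVA 1.7; no parameter, and no role of IgG, is given in the sources used here. The deposited files have the 20-column layout of the IDR method, read from the values since they carry no header. The deposited signal value of a region is the sum of the signal values of its 2 libraries, and which column belongs to which numbered library is not stated. The deposited −log10 of the IDR gave rates up to 0.05. The 16 summit columns and other contigs were not used.

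Regions on chromosomes 1 to 22, X and Y were compared by an overlap of at least 1 bp with Python 3.11.15, numpy 2.4.6, pandas 2.3.3, scipy 1.17.1 and matplotlib 3.10.9. Shares have exact 95% Clopper-Pearson intervals, which cover counting error only and take no account of neighbouring regions at the same gene. Overlap counting was checked on 2000 simulated queries, with 0 wrong. Gene spans came from RefSeq (GRCh38.p14), without exons, so exonic or intronic position is not known here. Promoter windows came from the same source; 2607 of 2607 overlapping windows on opposite strands were reverse complements. All 52 partner genes matched by symbol.

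The genes, their partner lists and the comparisons were chosen with earlier results of these data known. Named were all 10 genes, every TRβ region, each start, the region with the highest signal value per list, and, per partner list, up to 3 genes with the highest TRβ T3 signal value plus genes with a TRβ vehicle region; further remodeler regions were chosen after their values were seen. A gene that this rule names is not reported here. No test was made, because each group has 1 list. Alternatives were an IDR of at most 0.01, a reciprocal overlap of 50%, lists of equal length, windows of 5 and 100 kb, and the intervals of either library.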

Additional observations from a re-analysis of the deposited data

How the results depend on the processing

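A count is taken as moved where it changed by over 1.5 times, and a share where it left the 95% interval of the reported one, which is wide for few regions. Of 27 counts and shares, the intervals of either library moved 0 by this measure. These intervals belong to regions already listed because both libraries had them, so the counts could hardly change and neither library was examined alone. With them the TRβ T3-only share became 75.0% (6 of 8), and those of BRG1 and ARID1A reached 15.2% and 50%. A window of 5 kb moved 2: ARID1A regions fell to 29 in vehicle and 22 in T3. A window of 100 kb gave 15 TRβ regions in T3, 125 and 103 BRG1, 108 and 93 ARID1A, and 28 and 86 PBRM1 regions in vehicle and T3. An IDR of at most 0.01 left 1 TRβ vehicle region at 1 gene (MNT), 20 ARID1A vehicle regions, 6 and 25 PBRM1 regions in vehicle and T3, and a vehicle-only share of 20% for ARID1A. Lists cut to equal length left 5 TRβ and 14 PBRM1 regions in T3, near 3 and 7 genes, with 50% of the latter T3-only; vehicle-only PBRM1 regions became 40.0%. Requiring 50% reciprocal overlap raised the T3-only shares to 66.7% for ARID1A and 43.5% for BRG1 and the vehicle-only shares to 72.7% and 49.0%. The TRβ T3-only share became 87.5% (7 of 8), and 1 of the 2 TRβ vehicle regions became vehicle-only. The same requirement left 50% of the 8 TRβ T3 regions overlapping ARID1A T3, and 50% overlapping PBRM1 T3. Wider windows and stricter lists change these counts by construction.

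No paired analysis was possible because the lists hold only regions found in both libraries and do not say which library is which. Leaving out a library was not run for the same reason. Depth is unknown, so what a list could not show is unknown too. The PBRM1 and TRβ lists differ in length by condition, and how much of the T3-only regions follows list length was not tested beyond the lists of equal length.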

Other observations

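Beyond the 25 kb limit, 3 more TRβ T3 regions lay 54.3, 55.3 and 57.1 kb from the MXD3 span, at RGS14, with summed signal values of 16.8, 20 and 22.9. Each was above the 16.1 of the region at the MXD3 start, and none had a place in the counts above. A T3 region 80.0 kb from MNT, at SMG6 and SRR, had library values of 13.6 and 6.40. A T3 region at JMJD7-PLA2G4B, 57.6 kb from MGA, had 8.25 and 7.46. MXD1 was the only one of the 10 genes without a TRβ region in its window that had one within 100 kb in both conditions, at GMCL1, with summed values of 13.9 in vehicle and 12.9 in T3.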
